A study of Arabidopsis thaliana with 29 samples.

Results

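Hybrid Arabidopsis embryos at the bent cotyledon stage were compared between the 2 directions of a cross, with either Col-0 or Tsu-1 as the mother. The 4 libraries, of 29 in the series, were chosen by their labels: 2 came from Col-0 mothers pollinated by Tsu-1 and 2 came from Tsu-1 mothers pollinated by Col-0. All embryos are F1 hybrids with 1 nuclear genome from each parent, so both groups carry the same 2 sets of nuclear alleles and differ in which accession was the mother. Embryos were isolated by hand and washed free of maternal seed tissue, polyadenylated RNA was linearly amplified before library construction, and reads were counted per gene. The labels call the 2 libraries of a cross biological replicates without giving the number of embryos or plants behind each, so p-values measure the spread between these libraries. The series spans 7 embryo stages in both crosses plus unfertilized Col-0 ovules. Its other libraries were used to estimate the spread between libraries. Those of the torpedo and mature stages also served as neighbours in time.

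At the bent cotyledon stage the embryo passes from patterning to maturation. It fills with storage proteins (12S globulins called cruciferins and 2S albumins) and with oil held in oleosin-coated bodies, and later accumulates late embryogenesis abundant (LEA) proteins and protective sugars before drying. The programme is driven by the transcription factors LEC1, LEC2, FUS3 and ABI3 and by the hormone abscisic acid, which act through RY and ABRE promoter elements. Chloroplasts and mitochondria come from the mother, so embryos of Tsu-1 mothers carry Tsu-1 organelles.

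Depth differed between the libraries and sets what could be seen. The Col-0-mother libraries held 33745414 and 11079356 reads assigned to genes, and the Tsu-1-mother libraries held 12037106 and 689780 reads. The 10 genes with the most reads took 39.8 and 48.9% of the reads in the Col-0-mother libraries but 9.50 and 11.6% in the Tsu-1-mother libraries. A count of 3 reads, used as the detection floor, corresponded to 0.145, 0.420 and 0.248 CPM (CPM is a count scaled by library size) in the 3 deeper libraries and to 3.66 CPM in Tsu-1-mother replicate 2. CPM here is scaled by TMM factors, which were 0.612 and 0.645 in the Col-0-mother libraries and 1.00 and 1.19 in the Tsu-1-mother libraries, so shares of CPM differ from shares of reads. Below, 4 values of a gene are always given as Col-0-mother replicates 1 and 2 and then Tsu-1-mother replicates 1 and 2, and a log2 difference is Tsu-1 mother minus Col-0 mother.

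The embryo label was set against markers. Of 32 embryo patterning genes, none was at 0 in all bent libraries and 17 exceeded 10 CPM in at least 1. Of 21 seed coat markers, TT2 was at 0 in all 4 libraries, 7 stayed under 1 CPM in all 4 and 3 exceeded 10 CPM, with summed levels of 577, 217, 433 and 788 CPM. Most of that sum was the flavonoid gene TT4, at 524, 173, 370 and 732 CPM. Of 17 endosperm markers, AGL36 and AGL28 were at 0 and 8 stayed under 1 CPM, with summed levels of 139, 130, 24.4 and 24.4 CPM. Most of the endosperm sum was EPR1, which encodes an extensin-like protein, at 101, 91.4, 4.14 and 2.44 CPM. EPR1 was called lower with the Tsu-1 mother (log2 difference -4.66, SE 0.615, edgeR adjusted p = 5.95e-05), and its part in other results was not tested. In bulk libraries, fewer cells of a type and less RNA per cell cannot be told apart.

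Across the transcriptome, 3925 of 25157 genes tested differed between the crosses by edgeR's quasi-likelihood test at a Benjamini-Hochberg adjusted p under 0.05, which is 15.6%. With a Tsu-1 mother 1430 genes (5.68%) were higher and 2495 (9.92%) were lower, and the median log2 difference over all genes tested was -0.34. The split depended on the scaling. It was 2006 higher and 2070 lower with DESeq2-type size factors, 1869 and 2179 with upper quartile scaling, and 4633 and 638 with library totals alone, where the median over all genes became 0.31. Among 4482 genes whose mean log2 CPM was 5 or more, 545 (12.2%) were higher and 433 (9.66%) were lower. Their median log2 difference was 0.08, so the median over all genes lies below that of abundant genes. Single libraries also moved the count, which was 1648 without Col-0-mother replicate 1 and 943 without Tsu-1-mother replicate 1. The lists below are therefore read against these shares and medians over all genes, and "rose" or "fell" is written of single genes that passed the test. Of the 54 genes named below by rule or as rare calls that passed, 18 were called the same way under every alternative tried.

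The seed storage proteins, the nitrogen reserve of the seed, were read far less in embryos of Tsu-1 mothers. Their 13 genes took 36.3 and 45.8% of all reads in the Col-0-mother libraries and 6.02 and 7.77% in the Tsu-1-mother libraries. In 12 of the 13, both Tsu-1-mother libraries lay below both Col-0-mother libraries, whereas 34.4% of all genes tested did so. The median log2 difference of the 13 was -3.03, and it stayed between -2.24 and -2.88 under the other 3 scalings, or 2.55 to 2.68 below the median of all genes over the 4 scalings. SESA1 and PAP85 passed the adjusted test in the fit over 29 libraries, 9 of the 13 were lower at an unadjusted p under 0.05, none was higher by either measure, and DESeq2 called 4 lower. The spread estimated there was wide for these genes, with a median biological coefficient of variation of 0.724, against 0.377 when the spread came from the 12 torpedo, bent and mature libraries. In that fit of 12 libraries 9 of the 13 were called lower and none higher, where 12.4% of 20348 genes were lower and 8.92% higher. The 4 bent libraries alone also gave 9 lower and none higher, where 7.93% of 17695 genes were lower and 7.01% higher.

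SESA1, a 2S albumin (AT4G27140, chromosome 4, 13607329 to 13608031, plus strand, TAIR10.1), measured 30640, 191600, 2980 and 2436 CPM. The Col-0-mother libraries were themselves far apart, yet both lay well above the Tsu-1-mother libraries. The log2 difference was -5.36 (SE 1.23, edgeR adjusted p = 0.00464), a 41.0-fold lower level with the Tsu-1 mother, and the call was lost without Tsu-1-mother replicate 1 (adjusted p = 0.0773) or replicate 2 (0.0532). PAP85, a vicilin-like globulin (AT3G22640, chromosome 3), measured 6911, 5298, 887 and 611 CPM. Here the replicates were close and the groups did not overlap, with a difference of -3.03 (SE 0.964, edgeR adjusted p = 0.0335), although the call was lost when any 1 of the 4 bent libraries was left out (adjusted p 0.0505 to 0.173).

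The remaining storage genes did not pass the test over 29 libraries. SESA3 measured 179700, 262900, 15300 and 27150 CPM, a difference of -3.38 (SE 1.44, edgeR adjusted p = 0.112, and 0.00291 in the fit of 12 libraries). The cruciferin gene CRU3 measured 109700, 44150, 6528 and 5978 CPM (-3.62, adjusted p = 0.0537). CRA1, another cruciferin, measured 79960, 14850, 2710 and 4170 CPM (-3.79, adjusted p = 0.0602). These genes had the same pattern of 2 high and 2 low libraries as SESA1. SESA2 and SESA4 differed by -3.03 and -3.56 with adjusted p of 0.125 and 0.0519. The albumin SESA5 measured 3386, 2836, 1921 and 1602 CPM (-0.82, adjusted p = 0.584). The vicilin-like AT2G18540 measured 233, 674, 637 and 586 CPM and was the 1 storage gene whose groups overlapped. SESA1 to SESA4 are neighbouring copies of similar sequence on chromosome 4, so the assignment of reads among them is uncertain.

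**Figure D1:**
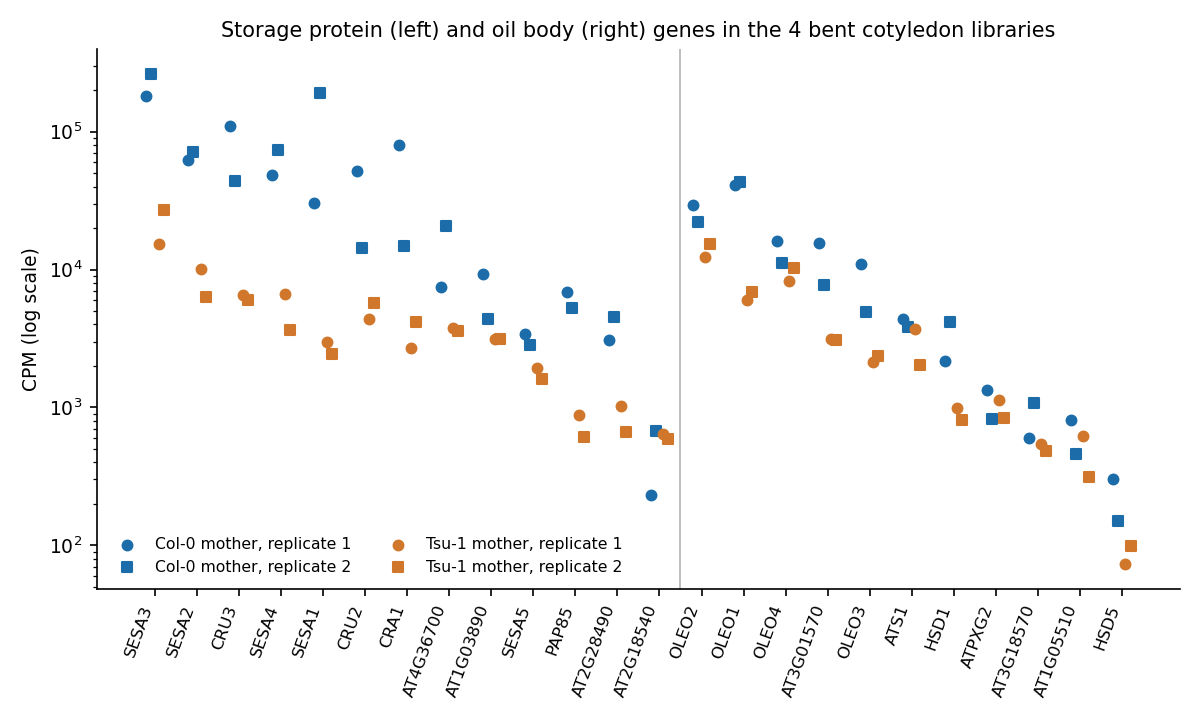
Level in CPM (log axis) of each seed storage and oil body gene in the 4 bent cotyledon libraries, 1 point per library, coloured by mother and ordered by count level, which is not corrected for gene length. For 12 of the 13 storage genes both Tsu-1-mother points lie below both Col-0-mother points, with SESA1 the widest apart.

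At torpedo the mean log2 CPM of the storage genes was 3.94 and 4.34 with the Col-0 mother against 4.22 and 4.72 with the Tsu-1 mother. None of the 13 was called there by edgeR, where 13.5% of all genes were, and 3 were higher and 0 lower at an unadjusted p under 0.05. At bent the means were 14.04, 14.06, 11.63 and 11.49. At mature they were 15.25, 14.76, 13.26 and 13.45, so levels were above those at bent in both crosses, and 1 of 13 was called lower (median -1.81) where 8.58% of all genes were. The storage share of reads in mature embryos was 56.4 and 50.8% with the Col-0 mother and 16.9 and 17.2% with the Tsu-1 mother. The edgeR test of the difference between stages called none of the 13 against torpedo, where 5 were lower at an unadjusted p under 0.05, and none against mature, where 0 were. Of all genes, 0.676 and 4.86% were called in these tests.

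Promoters of 5 genes are shown because they carry the 2 elements through which maturation regulators act in different mixtures. Each is the stretch of 250 bases before the annotated gene start in the TAIR10.1 assembly, 5′ to 3′ on the gene's strand. Capitals mark RY (CATGCA or its complement TGCATG) and the ABRE core (ACGTG or CACGT), and CACGTG holds the core on both strands.
SESA1: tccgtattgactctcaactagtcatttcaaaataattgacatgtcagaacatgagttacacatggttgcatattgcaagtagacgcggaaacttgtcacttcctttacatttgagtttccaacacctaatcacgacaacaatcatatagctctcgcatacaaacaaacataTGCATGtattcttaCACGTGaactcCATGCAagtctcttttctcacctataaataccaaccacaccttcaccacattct
PAP85: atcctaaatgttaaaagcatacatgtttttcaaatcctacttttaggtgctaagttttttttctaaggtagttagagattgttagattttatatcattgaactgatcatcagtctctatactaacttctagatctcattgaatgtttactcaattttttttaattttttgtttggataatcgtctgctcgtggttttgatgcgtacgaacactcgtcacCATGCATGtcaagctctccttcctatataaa
OLEO1: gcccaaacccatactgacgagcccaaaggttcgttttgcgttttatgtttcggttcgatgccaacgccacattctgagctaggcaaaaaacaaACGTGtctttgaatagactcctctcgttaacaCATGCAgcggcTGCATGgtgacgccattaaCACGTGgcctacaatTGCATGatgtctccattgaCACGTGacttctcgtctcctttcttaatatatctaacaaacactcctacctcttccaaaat
AT1G04560: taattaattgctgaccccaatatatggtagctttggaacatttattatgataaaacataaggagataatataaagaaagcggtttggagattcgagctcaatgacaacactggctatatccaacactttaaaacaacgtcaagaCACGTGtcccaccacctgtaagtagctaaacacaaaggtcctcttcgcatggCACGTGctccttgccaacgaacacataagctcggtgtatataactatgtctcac
FAD3: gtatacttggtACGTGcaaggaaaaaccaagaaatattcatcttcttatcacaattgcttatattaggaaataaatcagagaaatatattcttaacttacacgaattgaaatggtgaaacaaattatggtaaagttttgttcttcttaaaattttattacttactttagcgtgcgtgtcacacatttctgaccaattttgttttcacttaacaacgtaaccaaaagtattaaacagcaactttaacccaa
These windows lie at chr4:13607079-13607328 on the plus strand for SESA1, chr3:8013942-8014191 on the minus strand for PAP85, chr4:12900180-12900429 on the plus strand for the oleosin gene OLEO1, chr1:1244697-1244946 on the plus strand for the LEA-list gene AT1G04560, and chr2:12785191-12785440 on the minus strand for the desaturase gene FAD3. SESA1 holds 2 RY and 2 ABRE sites counted over both strands, PAP85 holds 2 and 0, OLEO1 holds 3 and 5, AT1G04560 holds 0 and 4, and FAD3 holds 0 and 1. RY was found in 8.23% of the 24925 windows of genes tested, in 11 of 13 storage windows (84.6%), in all 11 oil body windows and in 6 of 30 LEA windows (20%). The ABRE core was found in 22.6% of all windows, in 69.2% of storage, 72.7% of oil body and 90.0% of LEA windows. Over the whole set of called genes the shares stayed near those of all genes, with RY in 7.88% of the windows of genes higher with the Tsu-1 mother and in 7.63% of those lower, and the ABRE core in 24.9 and 21.3%. A match is a description of letters and not evidence of binding.

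Oil body coat proteins had a smaller median difference than storage proteins. Of 11 genes, 9 lay lower in both Tsu-1-mother libraries than in both Col-0-mother libraries, where 34.4% of all genes did. The 1 gene called lower is 9.09% of the list, near the 9.92% of all genes, and none was called higher. No gene of the list was called with DESeq2-type size factors, upper quartile scaling or library totals alone. Their share of reads was 7.51, 6.42, 3.91 and 5.03%. The median log2 difference was -0.89, but -0.07 with library totals alone, and 0.38 to 0.54 below the median of all genes over the 4 scalings. At torpedo the list's median was 0.91. Its mean log2 CPM there was 4.81 and 4.88 with the Col-0 mother and 5.35 and 5.53 with the Tsu-1 mother. OLEO1, the oleosin that coats seed oil bodies, measured 41350, 43230, 6006 and 6866 CPM, so the replicates were close and the groups far apart. Its difference of -2.72 (SE 0.997), 6.57-fold, had an edgeR adjusted p of 0.0640 over 29 libraries and 0.00209 over 12. OLEO2 measured 29170, 22160, 12420 and 15340 CPM and OLEO4 16230, 11160, 8219 and 10190 CPM, differences of -0.89 and -0.57 that did not pass the test (adjusted p = 0.465 and 0.637). HSD5, a hydroxysteroid dehydrogenase, was called higher with the Tsu-1 mother at torpedo (1.68, edgeR adjusted p = 0.0173). Its difference at bent was called below that at torpedo (bent minus torpedo -3.09, SE 0.655, edgeR adjusted p = 0.0223). At bent HSD5, named because it was the single gene called, measured 302, 150, 73.0 and 98.8 CPM (-1.41, edgeR adjusted p = 0.0387). That call was lost without Col-0-mother replicate 1, Tsu-1-mother replicate 1 or Tsu-1-mother replicate 2 (adjusted p = 0.356, 0.292 and 0.0774).

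The LEA genes protect cells during drying. Of 30 genes 2 were called higher and 4 lower with the Tsu-1 mother, or 6.67 and 13.3% against 5.68 and 9.92% of all genes, and 5 and 3 with library totals alone. The median log2 difference was -0.47, and its sign turned to 0.08 with library totals alone. LEA genes took 0.447 and 0.471% of reads with the Col-0 mother and 0.601 and 0.701% with the Tsu-1 mother. AT1G04560, an AWPM-19-like membrane protein, measured 2945, 2686, 1853 and 1768 CPM, AT4G21020 measured 590, 903, 610 and 605 CPM and the dehydrin gene LEA measured 929, 983, 418 and 358 CPM. None of these 3 passed the test over 29 libraries (adjusted p = 0.702, 0.851 and 0.284), and LEA passed over 12 (0.0363). The 6 called genes were named after their values were seen. AT2G18340, a LEA-domain gene, rose from 11.6 and 9.66 to 45.9 and 95.2 CPM (2.69, SE 0.522, edgeR adjusted p = 0.00134), and RAB28 rose from 45.6 and 24.6 to 137 and 90.3 CPM (1.70, adjusted p = 0.0328). AT3G02480, a LEA-family gene, fell from 266 and 197 to 64.5 and 46.4 CPM (-2.04, SE 0.403, edgeR adjusted p = 0.00154). AT2G18340 and AT3G02480 kept their calls when any 1 of the bent libraries was left out, whereas RAB28 lost its call without any but Tsu-1-mother replicate 2 (adjusted p 0.0611 to 0.272).

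The other 3 calls among LEA genes rested on few reads. GEA6 (Em6), an Em-type hydrophilic protein, had 73 reads in the Col-0-mother libraries and 0 in the Tsu-1-mother libraries, at least 11.3-fold lower against a floor of 3 reads over the group. AT2G42560 had 28 reads against 1, a ratio of 13.0 with a 95% counting interval of 2.15 to 531. SMP1 stood at 13.0, 4.06, 1.49 and 4.88 CPM with overlapping libraries and an edgeR adjusted p of 0.0490. All 3 calls were lost without Tsu-1-mother replicate 1 (adjusted p = 0.529, 0.553 and 0.777), those of GEA6 and SMP1 also without Col-0-mother replicate 1 (0.0968 and 0.474), and that of AT2G42560 without replicate 2 (0.0629). At mature 6 LEA genes were called higher and 1 lower with the Tsu-1 mother, against 6.27 and 8.58% of all genes, and for 3 of the 30 the difference at bent was called lower than at mature, where 2.58% of all genes were. These 3 were GEA6, AT2G42560 and a gene with 7, 1, 2 and 0 reads at bent. Their tests between stages therefore also rested on few bent reads.

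**Figure D2:**
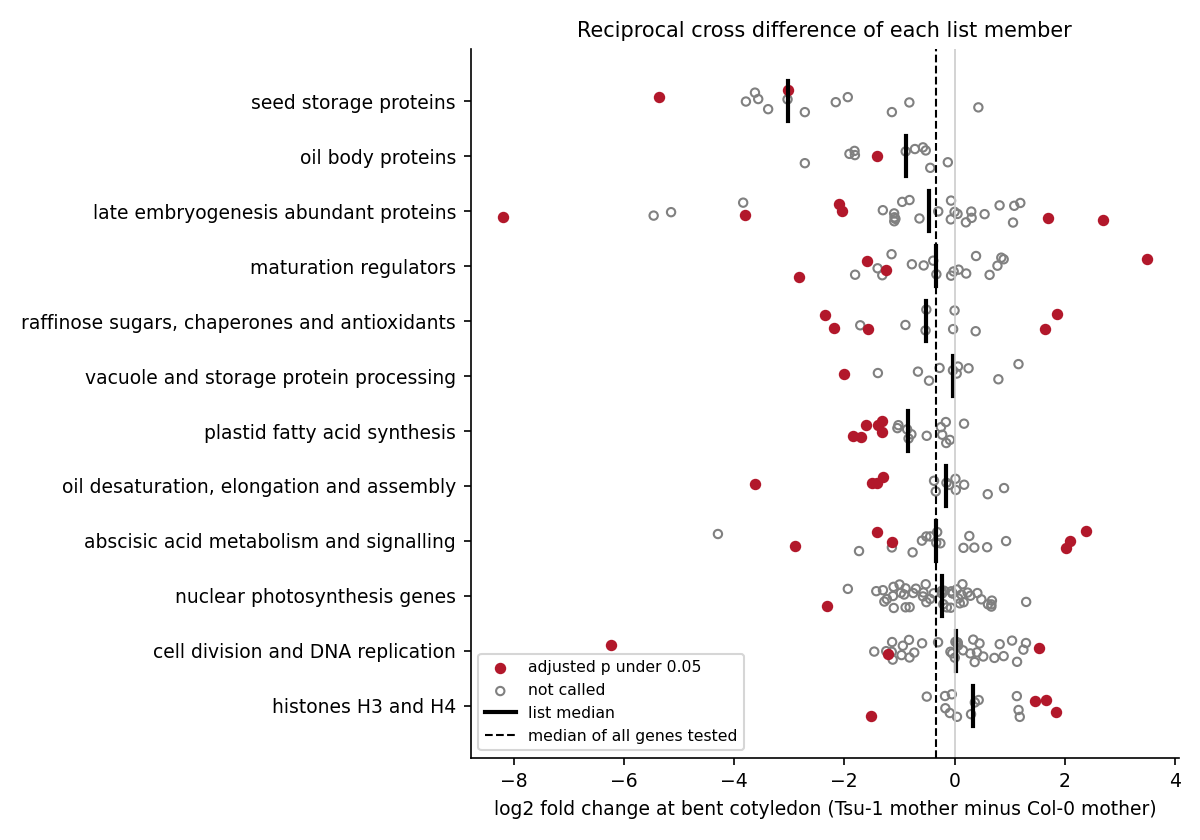
Log2 difference between crosses (Tsu-1 mother minus Col-0 mother) of every member of 12 gene lists, 1 point per gene, filled where the edgeR adjusted p is under 0.05, with the list median as a black bar and the median of all genes as a dashed line. Storage proteins lie farthest below the dashed line; the point of GEA6 near -8.2 is a fitted value for a gene with no reads in either Tsu-1-mother library.

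Among the 21 maturation regulators 1 was called higher and 3 lower, 4.76 and 14.3% against 5.68 and 9.92% of all genes, and 5 and 0 with library totals alone. The list's median was -0.33 against -0.34 for all genes and 0.08 for genes at a mean log2 CPM of 5 or more. Its sign turned to 0.44 with library totals alone. LEC1, a nuclear factor Y subunit that starts the programme, rose from 1.40 and 2.1 to 10 and 32.9 CPM (3.49, SE 1.03, edgeR adjusted p = 0.0225). At torpedo LEC1 stood at 172, 75.6, 186 and 144 CPM and at mature at no more than 0.527 CPM, so bent levels lay between those of the 2 neighbouring stages in both crosses. Its call was lost without either Col-0-mother library or Tsu-1-mother replicate 2 (adjusted p = 0.157, 0.0664 and 0.126). WRI1, which activates fatty acid synthesis genes, fell from 108 and 123 to 66.8 and 25.6 CPM (-1.25, SE 0.413, edgeR adjusted p = 0.0397), a call also lost without either Col-0-mother library or Tsu-1-mother replicate 2 (0.0942, 0.121 and 0.276). HSFA9, a seed heat shock factor, had 55 reads against 3, a ratio of 8.5 with a 95% counting interval of 2.76 to 42.5 (adjusted p = 0.0276, and 0.265 and 0.916 without Col-0-mother or Tsu-1-mother replicate 1). BZIP25, a leucine zipper partner of ABI3 named after its value was seen, stood at 13.3, 11.1, 4.8 and 1.22 CPM (-1.59, adjusted p = 0.0486), and its call was lost without any 1 bent library (0.0702 to 0.172).

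The B3-domain factors themselves did not pass the test. FUS3 measured 176, 145, 300 and 196 CPM (0.64, SE 0.499, edgeR adjusted p = 0.408) and ABI3 measured 223, 304, 156 and 51.3 CPM (-1.31, SE 0.484, adjusted p = 0.0657). In neither gene did the libraries overlap between crosses. Among the 4482 abundant genes counted above, both Tsu-1-mother libraries lay above both Col-0-mother libraries in 31.3% and below both in 26.2%. A lack of overlap was therefore common among genes as abundant as FUS3 and ABI3. LEC2 was at 0.980 CPM or less in all 4 libraries. The LEC1 relative NF-YB6 (L1L) measured 282, 48.0, 186 and 249 CPM, with the 2 Col-0-mother libraries on either side of the others. ABI5, the abscisic acid-responsive leucine zipper factor, measured 13.9, 12.7, 9.27 and 12.2 CPM, EEL 391, 416, 253 and 107 CPM, DPBF2 (bZIP67) 142, 273, 240 and 167 CPM, and the dormancy gene DOG1 163, 188, 258 and 145 CPM (adjusted p = 0.585, 0.0684, 1.00 and 0.851). EEL and ABI3 passed without Tsu-1-mother replicate 1. The Tsu-1-mother group was then only the shallow replicate 2, with 88 and 42 reads for these genes.

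At mature 2 of the 21 regulators were called higher and 10 lower with the Tsu-1 mother, against 6.27 and 8.58% of all genes. FUS3 was among those lower there, at 92.5, 74.0, 19.4 and 13.3 CPM (-2.35, edgeR adjusted p = 0.00385), and its difference at bent lay 2.99 above that at mature (SE 0.727, adjusted p = 0.0162). ABI5 was higher at mature (1.62, adjusted p = 0.00725) and its difference at bent lay below it by 2.01 (adjusted p = 0.0483).

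Of 18 genes of plastid fatty acid synthesis 6 were called lower and none higher, 33.3% against 9.92% of all genes. The median log2 difference was -0.85, but -0.08 with library totals alone, and 0.39 to 0.51 below the median of all genes over the 4 scalings. All 6 calls were lost with library totals alone and after thinning the 4 libraries to the same total reads. The count was 2, 7, 1 and 2 without Col-0-mother replicates 1 and 2 and Tsu-1-mother replicates 1 and 2 in turn. CAC1, the biotin carboxyl carrier of acetyl-CoA carboxylase, fell from 199 and 174 to 54.5 and 48.8 CPM (-1.84, SE 0.451, edgeR adjusted p = 0.00725). FATB, the thioesterase that releases saturated fatty acids, fell from 97.3 and 106 to 32.1 and 35.4 CPM (-1.60, SE 0.352, adjusted p = 0.00348). In both genes the replicates were close and the groups apart, yet each call was lost without Tsu-1-mother replicate 1 (adjusted p = 0.0761 and 0.0664). The other called genes were the enoyl reductase MOD1 (-1.32), the plastid pyruvate kinase subunits PKP-ALPHA (-1.38) and PKP-BETA1 (-1.31), and the pyruvate dehydrogenase subunit PDH-E1 BETA (-1.70). SSI2, the stearoyl desaturase, measured 2127, 1626, 2329 and 1899 CPM with overlapping groups. The condensing enzyme KASI measured 1297, 1419, 860 and 718 CPM (-0.78, adjusted p = 0.182), and PDH-E1 ALPHA 1963, 1035, 797 and 682 CPM (-1.02, adjusted p = 0.112).

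Of 13 genes for desaturation, elongation and assembly of oil, 4 were called lower and none higher, 30.8% against 9.92% of all genes. With library totals alone 1 was lower and 1 higher, and after thinning 1 was lower. FAD3 (AT2G29980, chromosome 2, 12781524 to 12785190, minus strand, TAIR10.1), the desaturase that makes linolenic acid, fell from 8301 and 10250 to 836 and 676 CPM. The replicates were close and the groups far apart, with a difference of -3.62 (SE 0.474, edgeR adjusted p = 5.19e-05), 12.3-fold, and the call held when any 1 bent library was left out (adjusted p 0.000289 to 0.00322). At torpedo FAD3 stood at 123, 107, 210 and 153 CPM with no difference called (0.65, adjusted p = 0.331), and the difference at bent lay below that at torpedo by 4.27 (SE 0.631, adjusted p = 0.00476). At mature it stood at 992, 719, 33.6 and 37.4 CPM (-4.59, adjusted p = 2.34e-06). FAD2, which makes linoleic acid, fell from 7891 and 5343 to 2505 and 2514 CPM (-1.40, adjusted p = 0.0432). LPAT2, an acyltransferase of glycerolipid assembly, and KCR1, a reductase of fatty acid elongation, were called lower by 1.5 and 1.30 (adjusted p = 0.0249 and 0.0455) and were named after their values were seen. FAD2, LPAT2 and KCR1 lost their calls without Tsu-1-mother replicate 1 (adjusted p = 0.209, 0.0668 and 0.193), without Tsu-1-mother replicate 2 (0.137, 0.162 and 0.159) and without Col-0-mother replicate 1 (0.220, 0.104 and 0.0666), and KCR1 also without replicate 2 (0.205). KCS18 (FAE1), the seed elongase, measured 1934, 1395, 1815 and 1567 CPM with overlapping groups (0.02, SE 0.963). The list's median was -0.15, with a sign that turned to 0.02 with DESeq2-type size factors and 0.61 with library totals alone.

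At mature 16 of 18 plastid fatty acid genes and 7 of 13 oil genes were called lower and none higher, against 8.58% lower of all genes. Other scalings were not tried at mature, where TMM factors were 0.294 and 0.389 with the Col-0 mother and 0.629 and 0.568 with the Tsu-1 mother. The plastid list's share of mature reads was 0.0423 and 0.0722% against 0.0676 and 0.0532%, so the crosses overlapped on that measure. For 9 of the 18 plastid genes and 1 of the 13 oil genes the difference at bent was called above that at mature, where 2.27% of all genes were. KASI was one of them, at 114, 196, 9.99 and 13.4 CPM in mature embryos (interaction 2.94, SE 0.574, edgeR adjusted p = 0.00317).

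**Figure D3:**
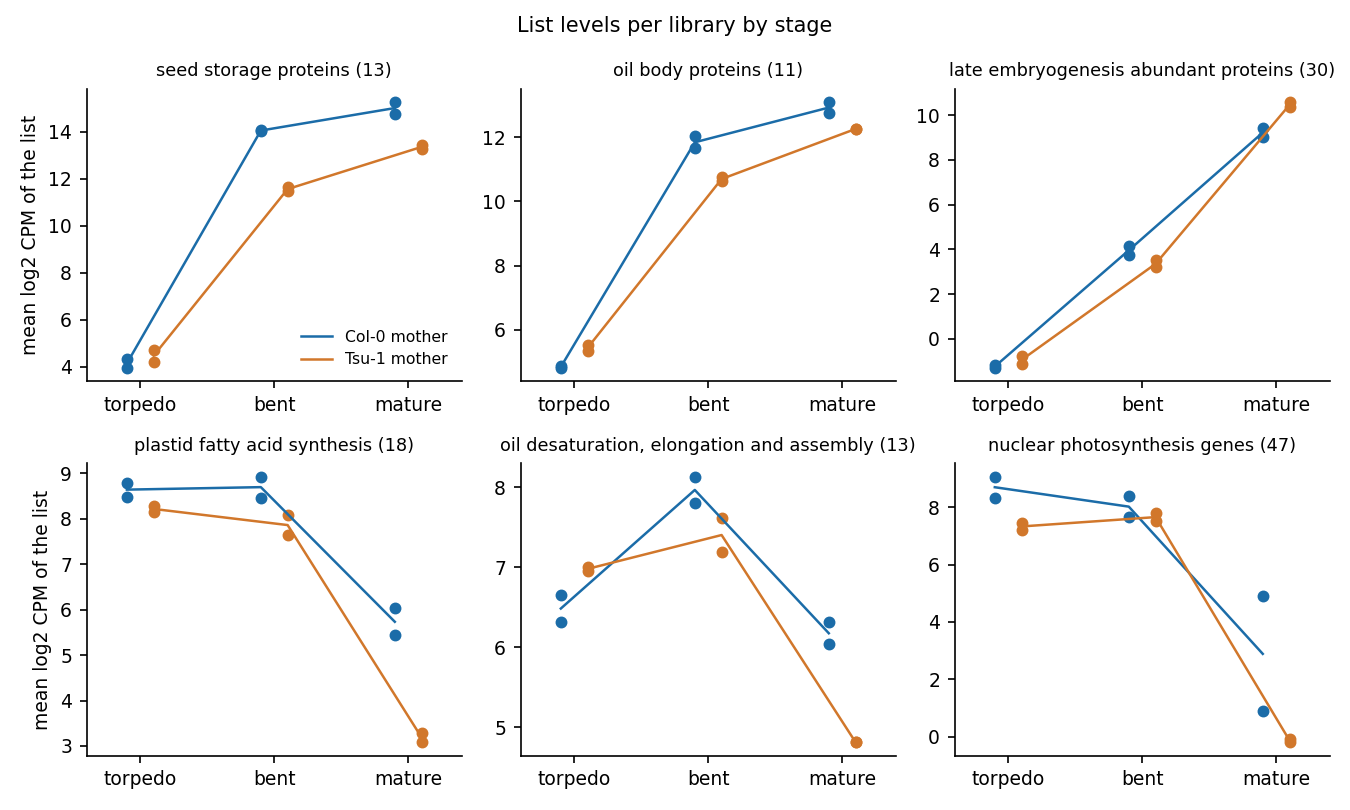
Mean log2 CPM of 6 gene lists in each torpedo, bent and mature library, 1 point per library, coloured by mother. At torpedo the storage means overlap between crosses, and both Tsu-1-mother oil body means lie above the Col-0-mother means. At bent, all Tsu-1-mother points of both lists lie below the Col-0-mother points.

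Protective sugars, chaperones and antioxidants gave 2 higher and 3 lower calls among 12 genes, 16.7 and 25% against 5.68 and 9.92% of all genes, and 2 and 0 with library totals alone. The median was -0.52, and 0.10 with library totals alone. HSP101, a chaperone of the stress response, rose from 106 and 98.0 to 267 and 373 CPM (1.65, SE 0.534, edgeR adjusted p = 0.0367), and stachyose synthase STS fell from 141 and 105 to 47.4 and 32.9 CPM (-1.57, SE 0.482, adjusted p = 0.0274). HSP101 lost its call without any 1 bent library (adjusted p 0.0890 to 0.149), and STS without any but Col-0-mother replicate 2 (0.111 to 0.144). The peroxiredoxin gene PER1 measured 1916, 989, 928 and 1090 CPM with overlapping groups. The small heat shock genes HSP17.6A and HSP17.4, called lower, and AT1G59860, called higher, were named after their values were seen, stood at or below 25.8 CPM and lost their calls without Tsu-1-mother replicate 1 (adjusted p = 0.192, 0.461 and 1.00). AT1G59860 measured 1.31, 1.26, 5.71 and 1.22 CPM, and its difference turned from 1.87 to -0.08 without Tsu-1-mother replicate 1. At mature 7 of the 12 were called higher and none lower, where 6.27% of all genes were higher, and for 3 the difference at bent was called below that at mature, where 2.58% of all genes were. These 3 were HSP17.6A, HSP17.4 and a gene with only 8, 1, 4 and 0 reads at bent.

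Of 11 genes for the storage vacuole and for processing of storage proteins, PDIL1-1 was called lower and none higher, 9.09% against 9.92% of all genes, and 0 lower and 2 higher with library totals alone. PDIL1-1, a protein disulfide isomerase, fell from 1048 and 576 to 293 and 109 CPM (-2.00, SE 0.453, edgeR adjusted p = 0.00437, and 0.0681 without Col-0-mother replicate 1 and 0.0669 without Tsu-1-mother replicate 2). The tonoplast aquaporin TIP3;1 measured 3285, 1288, 1983 and 1805 CPM and the protease APA1 1241, 604, 990 and 816 CPM, both with overlapping groups. BETA-TIP, the second seed aquaporin, measured 2277, 1797, 903 and 649 CPM (-1.39, SE 0.594, adjusted p = 0.112). The list's median was -0.03, above that of all genes by 0.31 but below the 0.08 of genes at a mean log2 CPM of 5 or more.

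Of 21 abscisic acid genes 3 were called higher and 3 lower, 14.3% in each direction against 5.68 and 9.92% of all genes, and 4 and 1 with library totals alone. HAI1, a protein phosphatase that abscisic acid induces and that restrains its signal, rose from 608 and 269 to 2400 and 2155 CPM (2.38, SE 0.589, edgeR adjusted p = 0.00792). Its call was lost without Col-0-mother replicate 2 (adjusted p = 0.0876) or Tsu-1-mother replicate 1 (0.0527). HAI1 was also higher with the Tsu-1 mother at torpedo (2.66, adjusted p = 0.00459). ABA2, a dehydrogenase of abscisic acid synthesis, rose from 42.7 and 42.3 to 146 and 200 CPM (2.02, SE 0.411, adjusted p = 0.00199), a call that held without any 1 bent library. PP2CA, a related phosphatase, measured 272, 692, 1399 and 439 CPM with overlapping groups. The 4 other calls, named after their values were seen, were CYP707A3 (2.09), CYP707A2 (-2.90), both hydroxylases that inactivate the hormone, and the kinase genes SNRK2.3 (-1.14) and OST1 (-1.40), all at 20.3 CPM or less and all lost without Tsu-1-mother replicate 1 (adjusted p 0.153 to 0.404). The list's median was -0.33, with a sign that turned to 0.40 with library totals alone. At mature 5 were called higher and 2 lower, against 6.27 and 8.58% of all genes.

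To ask whether embryos of one cross stood further along in development, each library was placed between the torpedo mean (0%) and the mature mean (100%), both taken over the 2 crosses, by the median over genes that differ at least 4-fold between those stages. For the 1050 rising genes whose mature mean log2 CPM was 6 or more, the Col-0-mother libraries stood at 53.1 and 45.1% and the Tsu-1-mother libraries at 51.1 and 42.1%. For 908 falling genes the positions were 22 and 30.1% against 21.7 and 28.4%. On both scales the 2 libraries of a cross differed more than the crosses did, and in the same direction in both crosses. Compared by replicate number, the Tsu-1-mother library stood lower on both scales. With a minimum of 7, given below, it stood higher on the rising scale. The labels do not say whether the numbers pair libraries. Of the rising genes 88 (8.38%) were called higher and 145 (13.8%) lower with the Tsu-1 mother. The rising scale depended on the minimum level: it read 52.5, 44.0, 47.5 and 38.7% with a minimum of 5, 53.9, 47.4, 54.8 and 47.5% with 7, and 48.7, 43.2, 16.9 and -1.69% with none, over 4596 genes. The end points include mature libraries of both crosses, so the scale is one of average progress and not of either cross alone.

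The largest increases were in genes outside the maturation lists. Among genes averaging 5 or more in log2 CPM and not overlapping between crosses, the 10 with the largest increase with the Tsu-1 mother kept their calls when any 1 bent library was left out. AT1G07135 (chromosome 1, 2189877 to 2190784, minus strand, TAIR10.1), which encodes a glycine-rich protein, rose from 4.21 and 9.38 to 513 and 267 CPM. That is 58.8-fold (5.88, SE 0.586, edgeR adjusted p = 2.92e-06), while at torpedo it stood at 41.0, 35.9, 127 and 99.7 CPM and at mature at 20.8 CPM or less. AT4G27280, a calcium-binding EF-hand protein, rose from 34.4 and 30.9 to 720 and 945 CPM (25.4-fold, adjusted p = 3.24e-05). The ubiquitin ligase gene RDUF1 rose from 16.3 and 15.8 to 460 and 333 CPM (24.7-fold, adjusted p = 3.41e-05). For these 3 genes the difference at bent was called larger than at torpedo (by 4.32, 4.36 and 4.02) and than at mature (by 4.67, 5.03 and 3.19). AT4G34630, of no assigned function, rose from 98.6 and 76.3 to 804 and 1082 CPM (3.43) and differed from mature by 4.6 (adjusted p = 8.16e-05). The others, higher by 3.40 to 4.43, were the chloroplast gene ATCG00380, the glutaredoxin gene AT1G64500, the dehydrogenase gene AT1G71170, AT1G68440, AT3G50685 and AT2G35760. All 6 were called higher at torpedo as well.

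The 10 largest decreases included SESA1, FAD3 and PAP85. AT1G56045, a ribosomal protein L41 gene, fell from 278 and 302 to 19.5 and 14.6 CPM (-4.04, SE 0.836, edgeR adjusted p = 0.00227, and 0.0511 without Tsu-1-mother replicate 1). HSC70-1, a constitutive chaperone, fell from 798 and 446 to 47.1 and 107 CPM (-3.04, SE 0.559, adjusted p = 0.000867). The RNA-binding protein genes RBP47A (-3.09) and PAB8 (-2.97), the ribosomal gene AT2G44120 (-3.05), the locus AT1G04107 (-3.08) and the chloroplast gene ATCG00480 (-2.96) completed the 10. Except for SESA1, AT1G56045 and PAP85, these 10 kept their calls without any 1 bent library. For ATCG00480 the difference at bent lay below that at torpedo by 3.35 (edgeR adjusted p = 0.0117).

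**Figure D4:**
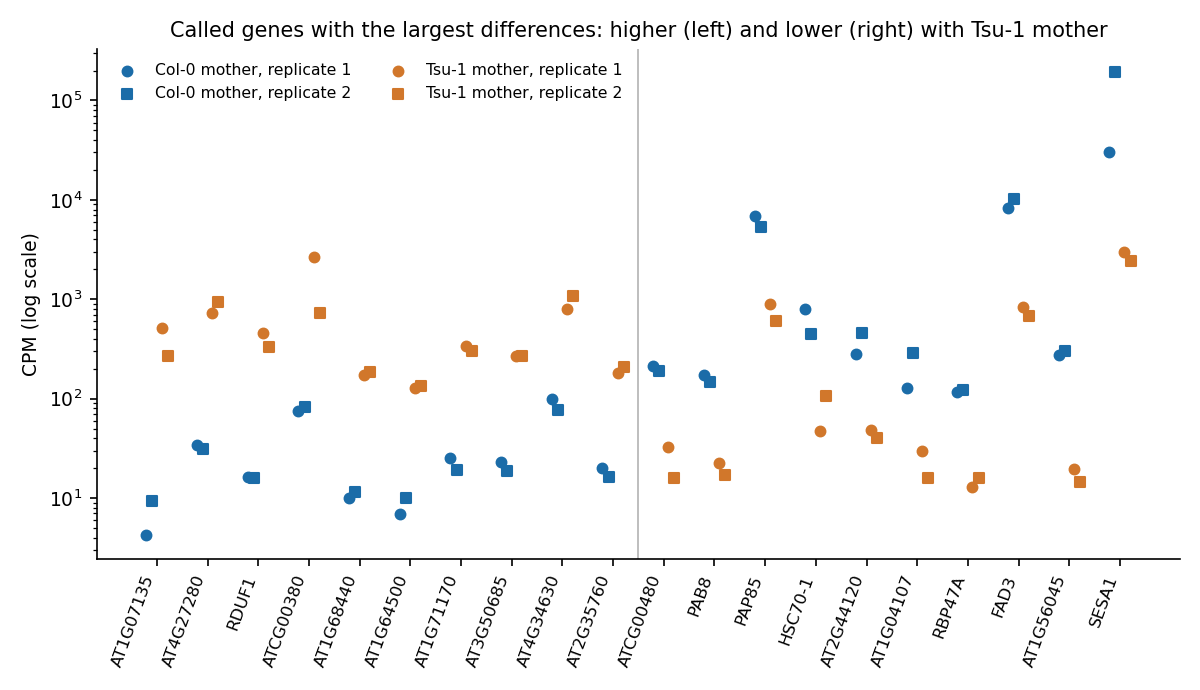
CPM (log axis) in the 4 bent libraries of the 10 genes with the largest increase and the 10 with the largest decrease with the Tsu-1 mother, 1 point per library, coloured by mother. AT1G07135 goes from 4.21 and 9.38 CPM with the Col-0 mother to 513 and 267 CPM with the Tsu-1 mother.

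Gene families were counted from product names. Ribosomal proteins were called lower in 90 and higher in 12 of 331 genes, 27.2% lower against 9.92% of all genes, with a median of -0.79. With library totals alone the split was 48 higher and 24 lower and the median -0.00, still 0.31 below that of all genes. The lower count was 31, 94, 26 and 52 with each bent library left out in turn. Their summed share of reads was 4.97, 3.20, 4.91 and 5.88%, so the groups overlapped on that measure. Heat shock proteins gave 22 lower (21.4%) and 5 higher of 103, proteasome subunits 7 lower (15.6%) and 1 higher of 45, pentatricopeptide proteins 25 lower (10.2%, near the share of all genes) and 8 higher of 245, and WRKY factors 3 lower (5.66%) and none higher of 53. With library totals alone these splits turned, to 8 lower and 17 higher, 1 and 10, 7 and 38, and 1 and 6, as the split over all genes turned to 638 and 4633. Glutathione S-transferases, which conjugate toxic compounds, gave 9 higher and 1 lower of 51 (5.68% of all genes were higher), and expansins, which loosen cell walls, gave 4 higher (13.8%) and none lower of 29. With library totals alone the splits were 13 and 0, and 5 and 0. Cytochrome P450 genes gave 8 higher (4.3%) and 10 lower (5.38%) of 186, histones 10 (9.01%) and 12 (10.8%) of 111, and genes named as LEA proteins 6 (8.57%) and 3 (4.29%) of 70. Under library totals these became 23 and 2, 30 and 2, and 16 and 3.

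Chloroplast-encoded genes were called lower in 62 and higher in 7 of the 128 tested, 48.4% lower against 9.92% of all genes, with a median of -2.18. With library totals alone 40 were lower and 20 higher. The lower count was 53, 45, 11 and 45 with Col-0-mother replicates 1 and 2 and Tsu-1-mother replicates 1 and 2 left out in turn, and 15 when the 4 libraries were thinned to the same total reads, which leaves unequal reads for genes other than storage genes. In the shallow Tsu-1-mother replicate 2, 52 of the genes had no read, against 0, 2 and 15 in the other libraries. The summed share of reads from the chloroplast ran the other way in part, at 0.192, 0.4, 0.799 and 0.432%. ATCG00380 alone went from 75.9 and 81.9 to 2657 and 731 CPM. Mitochondrion-encoded genes gave 7 lower (6.86%) and 2 higher (1.96%) of 102. The libraries are polyadenylated RNA, in which organelle transcripts are sampled incidentally, and the parental organelle genomes differ with the mother.

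Photosynthesis, cell division and histone genes are known to decline as embryos mature. Of 47 nuclear photosynthesis genes RBCS1A, the small subunit of Rubisco, was called lower (2.13% against 9.92% of all genes) and none higher (against 5.68%), with a median of -0.23 and 3 lower and 0 higher at an unadjusted p under 0.05. RBCS1A fell from 6200 and 5821 to 1529 and 880 CPM (-2.32, SE 0.678, edgeR adjusted p = 0.0218, and 0.0735, 0.0919 and 0.153 without Col-0-mother replicate 1, Tsu-1-mother replicate 1 and Tsu-1-mother replicate 2). The photosystem gene PSBR measured 1725, 1355, 1400 and 1297 CPM and the antenna gene CAB1 2774, 1365, 1010 and 700 CPM, neither passing the test (adjusted p = 0.822 and 0.292). At torpedo 12 of the 47 were called lower, where 7.59% of all genes were. At mature 37 were, where 8.58% of all genes were, and no gene was higher at either stage. For 26 of the 47 the difference at bent was called above that at mature, where 2.27% of all genes were. The mature Col-0-mother libraries were far apart on this list, with mean log2 CPM of 0.88 and 4.89 against -0.20 and -0.07 with the Tsu-1 mother, and the part of that spread in the interaction was not tested.

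Among 36 genes of cell division and DNA replication 1 was called higher and 2 lower, 2.78 and 5.56% against 5.68 and 9.92% of all genes, and 8 and 1 with library totals alone. The median was 0.03. CYCB2;1 stood at 1.55, 0.7, 2.90 and 6.10 CPM (1.53), CYCD3;2 at 49.0, 33.0, 16 and 20.7 CPM (-1.21), and CYCB3;1 had 17 reads against 0, at least 2.63-fold lower. These 3 were named after their values were seen. The mitotic kinase gene AUR2, the cyclin gene CYCD3;3 and SYP111, the syntaxin of the cell plate, were not called. SYP111 measured 19.6, 18.2, 38.6 and 45.2 CPM (1.13, SE 0.459, adjusted p = 0.0928). Of 16 genes for histones H3 and H4, AT3G45930 (1.66), AT5G59690 (1.45) and AT3G46320 (1.85) were called higher, 18.8% against 5.68% of all genes, and AT4G40030 (-1.52) lower. Under library totals 6 were higher and 0 lower. The median was 0.33, and all 4 lost their calls without Col-0-mother replicate 1 (adjusted p 0.0547 to 0.356). Histone copies are nearly identical in sequence, so reads may be shared between them. At torpedo 10 of the 36 division genes and 7 of the 16 histone genes were called lower and none higher, where 7.59% of all genes were lower.

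Among the patterning markers, SHR, which moves from the vascular cylinder to specify the endodermis, rose from 18.2 and 21.3 to 130 and 103 CPM (2.57, SE 0.435, edgeR adjusted p = 0.000490), and the auxin efflux carrier gene PIN7 rose from 4.41 and 3.92 to 14.5 and 15.9 CPM (1.84, adjusted p = 0.00172). The leaf polarity genes AFO (FIL) and KAN and the meristem genes STM and CUC3 were called lower. AFO measured 199, 208, 83.4 and 86.6 CPM (-1.26, adjusted p = 0.0338), KAN 9.44, 10.2, 2.65 and 3.66 CPM (-1.79), and STM 3.39, 1.96, 0.331 and 1.22 CPM (-2.73). CUC3 had 27 reads against 0, at least 4.18-fold lower. These 2 higher and 4 lower calls are 6.25 and 12.5% of the 32 patterning genes, against 5.68 and 9.92% of all genes, and were 6 and 1 with library totals alone. Leaving out each bent library in turn gave 2 or 3 patterning genes higher and 0 or 3 lower. The seed coat markers LDOX, DFR and GSTF12 were called higher and MUM4 lower, with LDOX at 2 reads against 15 and DFR at 1 against 9. These calls are 14.3 and 4.76% of the 21 seed coat markers, against 5.68 and 9.92% of all genes. They were 4 and 0 with library totals alone, and none was called after thinning. All 6 patterning and 4 seed coat genes were named after their values were seen.

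The cross difference was also measured at the neighbouring stages with other libraries. At torpedo 1497 genes (5.95%) were higher and 1909 (7.59%) lower with the Tsu-1 mother, and at mature 1578 (6.27%) and 2159 (8.58%). Of the 1430 genes higher at bent, 559 were called higher and 5 lower at torpedo, and 353 higher and 37 lower at mature. Of the 2495 genes lower at bent, 783 were called lower and 12 higher at torpedo, and 699 lower and 62 higher at mature. In all 201 genes were higher and 336 lower at all 3 stages, while 687 and 1283 were called at bent and at neither neighbour. The test of the difference between stages called fewer genes. It called 1222 genes between bent and mature, 572 (2.27%) with a higher difference at bent and 650 (2.58%) with a lower one, and 170 genes between bent and torpedo, 47 (0.187%) higher and 123 (0.489%) lower. These counts fell to 290 without Tsu-1-mother replicate 1 at bent for mature, and to 45 without Col-0-mother replicate 1 for torpedo.

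**Figure D5:**
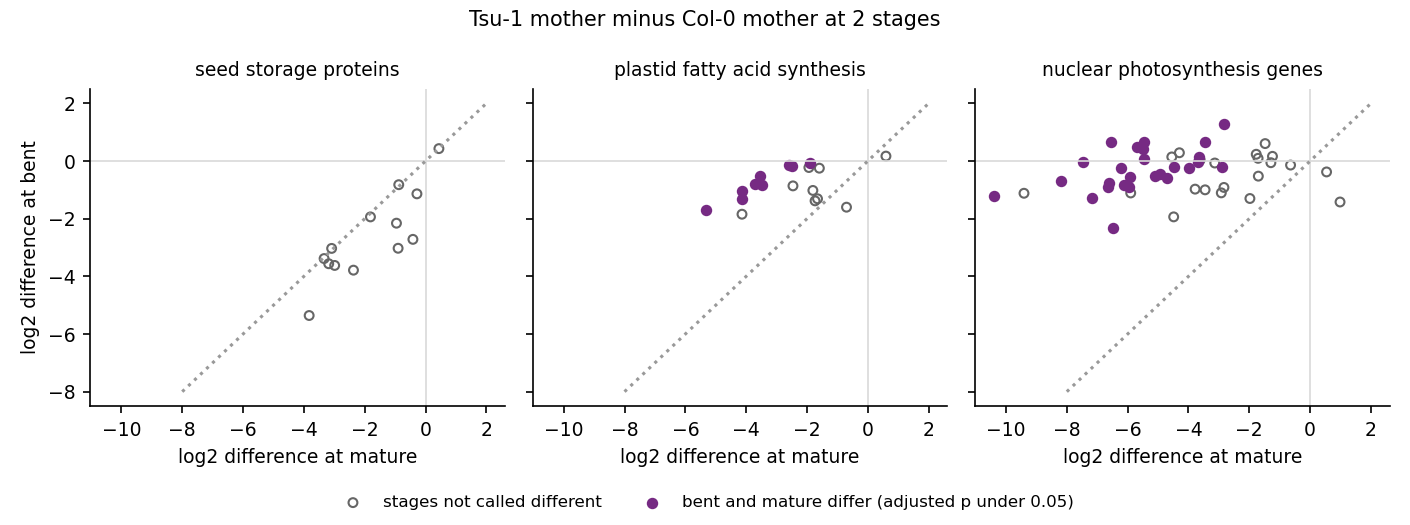
Log2 difference between crosses at mature (x axis) and at bent (y axis) for 3 gene lists, 1 point per gene. Equal differences lie on the dotted line, and points are filled where the 2 differences were called different. The 16 plastid fatty acid genes called lower at mature lie left of 0 on the x axis, and 9 of the 18 were called different between stages.

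Parental contributions were read from the authors' deposited table of maternal transcript fractions. The authors' deposited table held 7811 tested genes that had at least 10 reads over sequence variants in both crosses, and gave them a median maternal share of 52.3% with the Col-0 mother and 50.0% with the Tsu-1 mother. The authors' deposited table called 2.47 and 2.02% of these genes as departing from equal parental shares. In the authors' deposited table the 667 such genes higher with the Tsu-1 mother had median maternal shares of 51.9 and 51.2%, and the 873 lower genes had 51.6 and 50.0%. For 11 storage genes the authors' deposited table gave median maternal shares of 51.8 and 52.0%, and none was called. For PAP85 the authors' deposited table gave 54.9% maternal with the Col-0 mother and 44.7% with the Tsu-1 mother, neither called. Across all 7811 genes the authors' deposited table called 4 maternal and 0 paternal in both crosses, while it called the Col-0 allele the higher one in both crosses for 62 genes and the Tsu-1 allele for 45.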

How the data were processed

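Expected counts (fractional read counts per gene) were deposited by the authors for 33341 genes in 29 libraries; the submitters' processing notes name STAR 2.7.0d, featureCounts 1.6.0, edgeR and TAIR10 without saying which made the table. Counts were rounded, filtered by expression (25157 genes kept), scaled by TMM and fitted with edgeR 4.0.16 in R 4.3.3 as 1 quasi-likelihood model of 15 groups, with 14 residual degrees of freedom, two-sided tests and Benjamini-Hochberg adjustment over all genes. An exact permutation of 2 against 2 libraries cannot go below p = 0.333. SE is the absolute log2 fold change over the root of F. On counts simulated for this comparison, 110 of 200 genes changed 4-fold were recovered among 24642 tested, with 6 false calls. The changed genes were drawn from those at a log2 CPM of 2 or more, and all others were set equal between crosses at bent. The simulation thus lacked the unequal share of reads in the most abundant genes, and does not give the error rate of the real comparison. Bent libraries were also thinned to the total reads of the shallowest, and all were tested with DESeq2 1.42.0.

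Maternal fractions, their adjusted p-values and variant read counts were taken as deposited by the authors, with a value for each cross and stage, per the file headers. Whether a fraction is a ratio of pooled reads or an average over libraries or variants is not given in the sources used here. The test and the handling of low counts are not given there either. Gene names come from TAIR10.1, in which 33056 identifiers matched. Promoter windows were cut from the TAIR10.1 genome by its annotation.

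Named genes are the 10 largest changes in each direction (mean log2 CPM at least 5, no overlap), the 3 members of each list with the highest mean log2 CPM, and 11 regulators; others are marked. Members and lists were chosen with earlier results of these data known. The detection floor is 3 counts, and intervals (95%, exact) cover counting error only. Deviations of same-numbered libraries had r = -0.245 across 13504 genes, and numbers were not used as pairs. On the scales of developmental position, replicates 1 and 2 differed in the same direction in both crosses. The value of r therefore does not settle whether the numbers pair libraries. Alternatives tried were other scalings, no filter, DESeq2, fewer libraries, a replicate block, thinning, a 2-fold threshold, 50 variant reads and leaving out each bent library. Other scalings were tried for the bent comparison only, so calls at torpedo and mature and tests between stages rest on TMM.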

Additional observations from a re-analysis of the deposited data

Results flagged for a closer look

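For 1222 genes the difference between crosses at bent cotyledon differed from that at mature by edgeR's test of the difference itself, and for 170 genes it differed from that at torpedo. The named genes among them are given as log2 values, difference at bent minus difference at the other stage.

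Against mature, the difference at bent was higher by 4.67 for the glycine-rich protein gene AT1G07135, 5.03 for the EF-hand gene AT4G27280, 3.19 for the ubiquitin ligase gene RDUF1, 4.6 for AT4G34630 and 2.98 for AT1G04107. It was lower, at -1.93 for RBP47A, -2.65 for HSC70-1, -1.82 for PAB8 and -2.01 for ABI5. Among maturation, oil, photosynthesis and division genes it was higher by 2.99 for FUS3, 2.94 for KASI, 4.18 for RBCS1A, 2.7 for PSBR, 5.90 for CAB1 and 4.26 for SYP111.

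Against torpedo, it was higher by 4.32 for AT1G07135, 4.36 for AT4G27280 and 4.02 for RDUF1, and lower, at -4.27 for FAD3 and -3.35 for ATCG00480. AT1G07135, AT4G27280 and RDUF1 differed from both neighbouring stages.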

How the results depend on the processing

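The count of 3925 genes stayed within 1.5 times its value under the 3 other scalings, no filter, DESeq2 and the fits of 12 or 4 libraries. It was 1220 after thinning, 735 against a 2-fold change and 943 to 3125 with each bent library left out. Whether replicate numbers pair the libraries is not given by the labels. A replicate block in the 4 bent libraries gave 2021 genes, and the crossed block, added after seeing the data, gave 5226. The test of bent against mature gave 290 to 1103 genes with each bent library left out; that against torpedo gave 45 to 113, and 101 in the fit of 12 libraries. The storage median minus that of all genes (-2.68) was -2.55 with library totals, -2.79 with DESeq2, -2.80 with the 4 bent libraries, -2.81 with the replicate block, -2.80 with the crossed block and -2.72 to -2.17 with each library left out. Calls reversed for 2 genes: SMP1 read 0.24 after thinning, and AT1G59860 read -0.079 to 2.14 over the left-out libraries. Of 38 named genes not called, 66 of 567 alternative values had the other sign, and none of those 66 passed. With the same sign, 10 of these genes passed in the fit of 12 libraries and 7 in that of the 4 bent libraries. Signed differences printed for the 38 did not pass the test over 29 libraries. The cause of these moves was not tested. Depth limits the comparison most in Tsu-1-mother replicate 2, where 3 reads equal 3.66 CPM.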

Other observations

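Genes that rise at least 4-fold from torpedo to mature were split by the letters in their promoter windows, a description made after the data were seen. Of 131 rising genes with RY, 8 were called higher and 19 (14.5%) lower with the Tsu-1 mother, with a median log2 difference of -0.43. Of 331 with the ABRE core and no RY, 25 were higher and 45 (13.6%) lower, with a median of -0.25. Of 586 with neither, 55 were higher and 79 (13.5%) lower, with a median of -0.20. Without storage and oil body genes the RY group held 111 genes, of which 8 were higher and 16 (14.4%) lower, with a median of -0.11. Differences between these groups were not tested.

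Maternal shares far from 50% in opposite directions in the 2 crosses stood in the authors' deposited table for PER1 and SESA3, neither of them called there. For the peroxiredoxin gene PER1 the authors' deposited table gave a maternal share of 14.2% with the Col-0 mother and 88.1% with the Tsu-1 mother, so the Tsu-1 allele was the higher one in both. For SESA3 the authors' deposited table gave 79.0 and 24.6%, so the Col-0 allele was the higher one in both. These genes were picked after their values were seen, and the variant reads behind them in the authors' deposited table were 556 and 1074 for PER1 and 3145 and 2392 for SESA3. The assignment of reads among SESA1 to SESA4 is uncertain.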
